A study of Mus musculus with 6 samples.

Results

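Small nucleolar RNAs (snoRNAs) were measured as 38 of the 20416 genes of the array table, in haematopoietic stem cells from mouse bone marrow. The members were all genes whose only annotated symbol begins with Snora or Snord and a digit, or with Rnu3. They fell into 22 C/D box genes, the Snord genes together with Rnu3a, and 16 H/ACA box genes, the Snora genes. The 38 genes rested on 68 probe sets, of which 24 belonged to Snord116, 30 members had 1 probe set and 7 had 2. The members were chosen by symbol, and the group as such was selected on the measured difference between floxed and control arrays, so its values in that comparison are a description and no test is offered for the group.

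The cells carry the label KLSCD34-, that is, c-Kit positive, lineage negative and Sca-1 positive marrow cells without surface CD34. Of the 6 arrays, 3 came from samples labelled control and 3 from mice with floxed Beta-catenin alleles that were positive for vav-Cre, here called floxed arrays. The vav promoter drives Cre recombinase in blood-forming cells. The labels give no strain, age or sex, do not say whether the controls carried floxed alleles or Cre, and do not say whether a replicate was 1 animal or a pool, so the spread between replicates may be technical. The series title names oxidative stress and impaired regeneration after loss of beta-catenin, and the comparison asks how transcript levels differ between the 2 genotypes. All values below are log2 values on 3 arrays per group, listed in the order of replicates 1, 2 and 3, and a difference is the floxed mean minus the control mean with its standard error (SE) from the model fitted over all genes.

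snoRNAs are short nucleolar RNAs that, for the most part, guide chemical modification of ribosomal RNA. C/D box RNAs pair with their target and direct methylation of the ribose by fibrillarin, and H/ACA box RNAs direct the conversion of uridine to pseudouridine by dyskerin. A few, such as U3, U8 and U22, act in the cleavage of the ribosomal RNA precursor instead. In mammals most snoRNAs are not transcribed from a promoter of their own but are cut out of the introns of host genes, many of which encode ribosomal proteins or are non-coding snoRNA host genes.

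The recombined gene was examined first. Of 17 Ctnnb1 probe sets, 5 read lower on every floxed array than on any control array and at least 2-fold lower in the mean, by −6.90 to −2.51. The other probe sets differed by −0.28 to 0.48. Array medians over all probe sets lay between 7.56 and 7.65. The precision is limited by the number of arrays. Of 8 stem cell and gate markers 7 were measured, with array means of 10.35 to 10.67 in controls against 10.45 to 10.70 in floxed arrays. Cd34 RNA read 12.62 to 12.70 over the 6 arrays, although the gate selects cells without the surface protein. In limma 2 of 20416 genes passed an adjusted p of 0.05 (0.0098%), and neither was a snoRNA. Ctnnb1, as the median over its 17 probe sets, differed by −0.97 (SE 0.14) and did not pass (limma adjusted p = 0.125).

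snoRNA genes read higher in the floxed arrays as a class. Of the 38 members, 37 (97.4%) had a higher mean in floxed than in control arrays, where 49.8% of all genes did. The median difference was 0.43 over the 22 C/D genes and 0.43 over the 16 H/ACA genes, each a fold of 1.35, against −0.00 over all genes. Among C/D genes 21 of 22 were higher, and differences ran from −2.38 to 0.97. Among H/ACA genes 16 of 16 were higher, and differences ran from 0.12 to 0.67. Most snoRNA genes have few probe sets, and the 3503 genes with 1 or 2 probe sets leaned the other way, with a median of −0.08 and 33.9% higher. A difference of at least 0.25 on the higher side was reached by 30 of 38 members and by 10.3% of all genes.

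For 17 of 38 members (44.7%) all 3 floxed arrays lay above all 3 control arrays, 9 of them C/D and 8 H/ACA, where 5.05% of all genes and 3.80% of genes with 1 or 2 probe sets did. For 0 members all floxed arrays lay below all controls, where 5.49% of genes did. Single members did not pass limma over all genes with Benjamini-Hochberg adjustment (0 of 38, smallest adjusted p = 0.849, and 0.101 to 1 over the alternatives tried). At an unadjusted p of 0.05, 26 of 38 stood out (68.4%, and 5.23% of all genes), 25 of them higher (2.71% of all genes). That count of 26 was 14 without control replicate 2 (5.55% of all genes) and 15 without floxed replicate 2 (3.04%). It was 30 without control replicate 1 (14.4%) and 33 with array weights (12.1%). The comparison that gave these counts is the one with which the group was proposed, so nothing is read from the excess over the background.

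**Figure D1:**
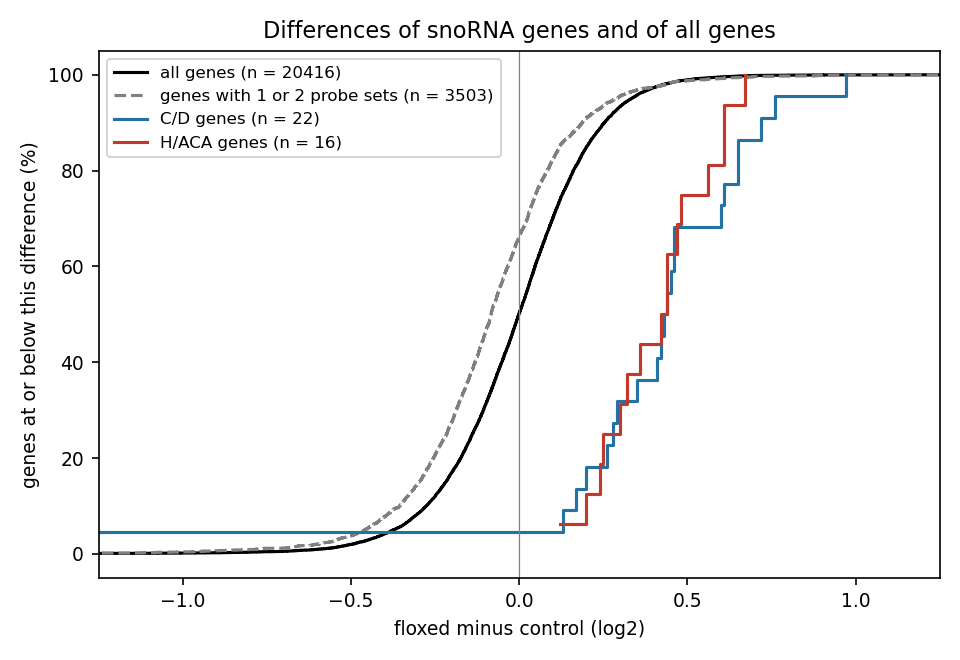
Share of genes in percent (vertical axis) at or below each difference, floxed minus control in log2 (horizontal axis), for all 20416 genes, the 3503 genes with 1 or 2 probe sets, the 22 C/D genes and the 16 H/ACA genes. Both snoRNA curves lie to the right of the others with medians of 0.43, and the step at the left end of the C/D curve is Snord116 at −2.38, outside the axis.

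The difference can be followed array by array. With each gene centred on its mean over the 6 arrays, the median C/D gene without Snord116 read −0.09, −0.27 and −0.24 across the controls against 0.24, 0.37 and 0.11 across the floxed arrays. The median H/ACA gene read 0.01, −0.33 and −0.25 across the controls against 0.15, 0.26 and 0.17 across the floxed arrays. In both classes the 3 floxed medians lay above the 3 control medians, and control replicate 1 came closest to the floxed arrays. That array was the highest control for 25 of 38 members and read above the lowest floxed array for 18, while control replicates 2 and 3 did so for 6 and 8. Without control replicate 1 the floxed arrays lay above the remaining controls for 30 of 38 members (17.4% of all genes), and the class medians were 0.54 and 0.50. Floxed replicate 2 was the highest of all 6 arrays for 21 members and the lowest floxed array for 0. The lowest floxed array was replicate 3 for 14 of 22 C/D genes and replicate 1 for 10 of 16 H/ACA genes.

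**Figure D2:**
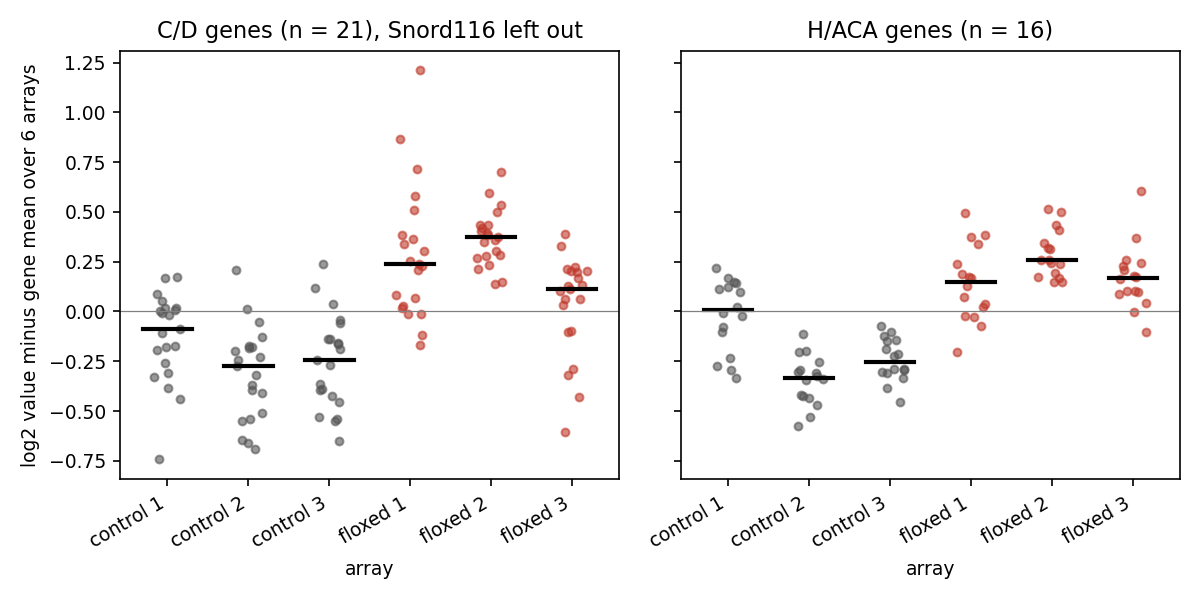
Each point is 1 gene on 1 array, as its log2 value minus its mean over the 6 arrays (vertical axis), for 21 C/D genes without Snord116 and 16 H/ACA genes, with a bar at the median of the array. The floxed medians of 0.11 to 0.37 for C/D and 0.15 to 0.26 for H/ACA lie above the control medians, of which control replicate 1 is the highest at −0.09 and 0.01.

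The snoRNAs of precursor cleavage that were measured as members read higher, as did 37 of the 38 members. Others on the list of textbook roles were not among the members. Rnu3a, a gene of the U3 snoRNA that takes part in the first cleavages of the precursor and has its own promoter, read 11.41, 11.57 and 11.58 in controls against 11.97, 12.01 and 11.91 in floxed arrays (difference 0.45, SE 0.10). Every floxed array was above every control, and the spread within each group was small, with an SD of 0.10 and 0.05. Snord22, which encodes U22 and acts in the maturation of the small-subunit RNA, read 7.72, 7.75 and 8.02 in controls against 8.54, 8.56 and 8.36 in floxed arrays (0.65, SE 0.16). These groups were apart as well. Snord118, which encodes U8 and acts in the maturation of the large-subunit RNAs, read 12.10, 11.82 and 11.70 in controls against 12.08, 12.44 and 12.42 in floxed arrays (0.44, SE 0.14). Here floxed replicate 1 lay at the level of control replicate 1 and just below it, so the groups overlapped. Both Snord118 probe sets held identical values and count as 1 measurement. Snora62, the H/ACA RNA known as E2, read 9.53, 9.38 and 9.50 in controls against 9.93, 10.30 and 10.17 in floxed arrays (0.67, SE 0.14), the largest difference among the H/ACA genes and again without overlap.

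Besides Rnu3a and Snord22, 7 C/D genes had groups that did not overlap. Snord38a read 4.60, 4.34 and 4.56 in controls against 5.70, 5.52 and 5.20 in floxed arrays (0.97, SE 0.19). Snord61 read 5.56, 4.85 and 4.85 in controls against 5.63, 5.67 and 5.78 in floxed arrays (0.61, SE 0.22). Both signals were low. Their means lie below 6.31, under which 95% of the 982 olfactory receptor genes fall, a family that is little used outside the olfactory epithelium, so whether either exceeded background cannot be said. Snord61 stayed clear of the controls by a small margin over control replicate 1. Snord87 read 8.69, 8.01 and 8.43 in controls against 9.21, 9.09 and 8.76 in floxed arrays (0.65, SE 0.20). Snord85 read 6.43, 6.32 and 5.90 in controls against 6.70, 6.83 and 6.51 in floxed arrays (0.46, SE 0.20). The gap between the groups was again narrow for both, under 0.1 between the highest control and the lowest floxed array. Snord49b read 12.32, 12.33 and 12.47 in controls against 12.50, 12.82 and 12.65 in floxed arrays (0.28, SE 0.11), and Snord49a of the same host differed by 0.42 (SE 0.16) without overlap. Their gaps were narrower still. The highest control and lowest floxed array read 12.47 and 12.50 for Snord49b, and 9.16 and 9.19 for Snord49a.

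Snord33 and Snord35a are C/D snoRNAs of Rpl13a introns. The snoRNAs of this host have been linked in other cells to responses to lipid overload and oxidative stress. Snord33 read 10.21, 10.19 and 10.33 in controls against 10.22, 10.76 and 10.61 in floxed arrays (0.29, SE 0.15), and Snord35a read 10.87, 10.75 and 10.79 against 10.86, 11.41 and 11.18 (0.35, SE 0.14). For both, floxed replicates 2 and 3 were above all controls while floxed replicate 1 was at the level of the controls. Snord35b read 10.35, 9.94 and 10.09 in controls against 10.40, 10.69 and 10.53 in floxed arrays (0.41, SE 0.14), without overlap, although floxed replicate 1 stood just above control replicate 1. Snord32a and Snord34 shared their probe sets with Rpl13a and were not members. Those probe sets differed by 0.13 with overlap and by 0.43 without.

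Of the 16 H/ACA genes, 8 had groups that did not overlap, Snora62 among them. Snora74a read 11.51, 11.64 and 11.72 in controls against 12.02, 12.09 and 12.09 in floxed arrays (0.44, SE 0.10), and Snora61 read 11.93, 11.57 and 11.60 against 12.10, 12.17 and 12.09 (0.42, SE 0.12). The floxed arrays of each gene lay within 0.1 of one another, and all were above the controls. Snora34 read 10.53, 10.11 and 10.25 in controls against 10.92, 10.71 and 10.70 in floxed arrays (0.48, SE 0.14). Snora5c read 7.95, 7.56 and 7.74 in controls against 8.20, 8.44 and 8.29 in floxed arrays (0.56, SE 0.16). Snora21 read 8.77, 8.26 and 8.69 in controls against 9.13, 9.11 and 8.79 in floxed arrays (0.44, SE 0.17). None of these groups overlapped either, although floxed replicate 3 of Snora21 stood just above control replicate 1. Snora19, whose signal was in the range of the olfactory receptor genes, read 3.84, 3.75 and 3.93 in controls against 4.57, 4.39 and 3.97 in floxed arrays (0.47, SE 0.18), and Snora69 differed by 0.32 (SE 0.11), both without overlap. For Snora19 floxed replicate 3 stood just above control replicate 3.

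Of the 5 H/ACA genes with the highest signal, 4 overlapped between the groups, with control replicate 1 at the floxed level. Signals of different probe sets give no order of abundance. Snora52 read 13.30, 12.93 and 12.98 in controls against 13.10, 13.30 and 13.17 in floxed arrays (0.12, SE 0.11), the smallest difference of the class, with a 95% confidence interval from −0.13 to 0.37. Snora44 read 12.78, 12.43 and 12.39 in controls against 12.66, 12.94 and 12.89 in floxed arrays (0.30, SE 0.12). Snora3 read 12.65, 12.14 and 12.21 in controls against 12.36, 12.58 and 12.66 in floxed arrays (0.20, SE 0.14). In all 3 genes control replicate 1 was higher than the other 2 controls by over 0.3. Snora7a read 12.29, 11.86 and 11.98 in controls against 12.24, 12.36 and 12.27 in floxed arrays (0.24, SE 0.12), again with control replicate 1 the highest control.

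Among the remaining members, Snord58b (0.76), Snord53 (0.72) and Snord52 (0.60) had differences of 0.60 or more with overlap, as did Snora2b and Snora41 at 0.61 each. Snord58b read 4.87, 4.30 and 4.57 in controls against 6.17, 5.17 and 4.67 in floxed arrays. Its signal, like those of Snora36b and Snord7, was in the range of the olfactory receptor genes. Snora41 came from floxed replicates 2 and 3, at 9.62 and 9.71, while floxed replicate 1 at 8.90 was below control replicate 1. Snord16a (0.43), Snord37 (0.46) and Snord96a (0.26) showed the opposite arrangement, with floxed replicate 3 lower than every control. Snord37, for example, read 6.50, 6.24 and 6.03 in controls against 7.35, 6.90 and 5.88 in floxed arrays. Snora30 differed by 0.36 and Snora36b by 0.25, and in both control replicate 1 fell among the floxed arrays. The smallest C/D differences above 0 were those of Snord82 (0.17, SE 0.14), Snord7 (0.13, SE 0.18) and Snord8 (0.20, SE 0.24). Snord82, enclosed by the nucleolin gene, read 11.72, 11.35 and 11.84 in controls against 11.93, 11.86 and 11.62 in floxed arrays. Leaving out single arrays moved its difference between 0.02 (control replicate 2 left out) and 0.27 (control replicate 3 left out), and array weights gave 0.34. Snord8 was set apart by control replicate 1, which read 7.91 where the other 5 arrays read 8.68 to 8.89, and its difference turned below 0 without that array.

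**Figure D3:**
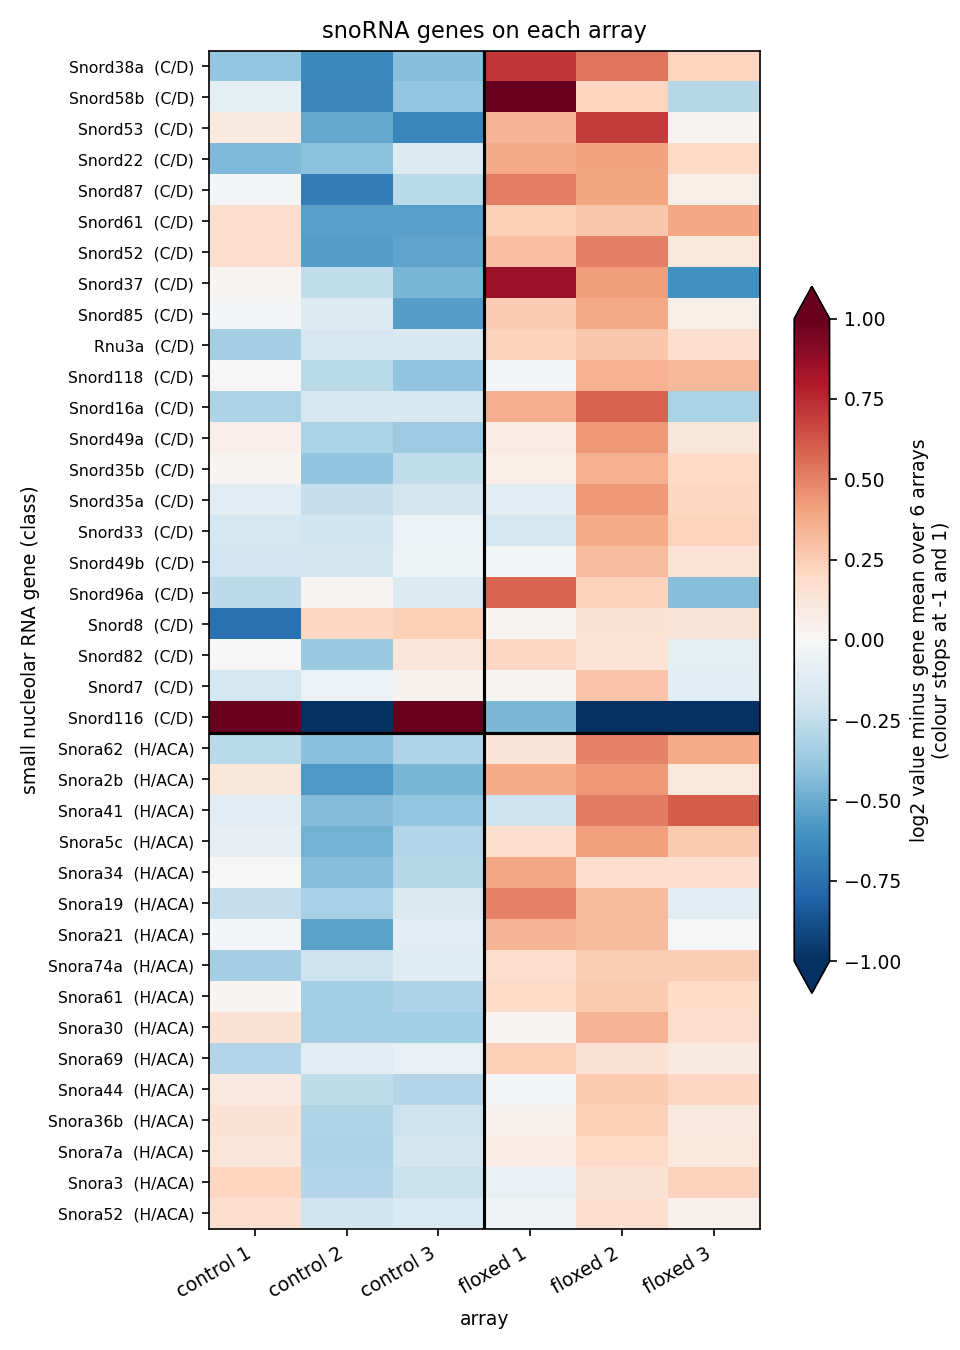
Log2 value minus the mean over the 6 arrays (colour, drawn from −1 to 1) for each of the 38 snoRNA genes (rows, C/D above and H/ACA below the black line, each class ordered by its difference) on each of the 6 arrays (columns, 3 control then 3 floxed). Most rows run from blue in controls to red in floxed arrays, Snord116 runs the other way, and control replicate 1 is the palest control column.

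Snord116 was the exception in size, direction and spread. It belongs to the imprinted cluster deleted in most cases of Prader-Willi syndrome, is known mainly from neurons, and has no known ribosomal RNA target. It read 8.69, 6.59 and 11.03 in controls against 7.13, 6.43 and 5.61 in floxed arrays (difference −2.38, SE 0.82). The control SD of 2.22 was the 8th largest of the 20416 genes, and that of the next member, Snord8, was 0.56. Control replicate 2 lay between floxed replicates 1 and 2, so the groups overlapped, and leaving out single arrays or changing the processing gave differences from −3.47 to −1.15. On all 24 probe sets control replicate 3 was the highest array and floxed replicate 3 the lowest, but 18 of them held identical values and there were 7 distinct profiles in all, so they are not independent measurements. Other genes of the imprinted region, named after their values were seen, differed by 0.21 (Ndn), −0.21 (Magel2), −0.39 (Mkrn3) and 0.27 (Ube3a). Mkrn3 also had its highest array in control replicate 3 and its lowest in floxed replicate 3, at 6.20 and 5.35. Its floxed arrays lay below all controls, as did those of 5.49% of all genes and of 206 of the 982 olfactory receptor genes. All Mkrn3 readings lay under 6.31, in the range of those olfactory receptor genes, so whether it exceeded background cannot be said. Leaving Snord116 out moved the C/D median from 0.43 to 0.44.

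**Figure D4:**
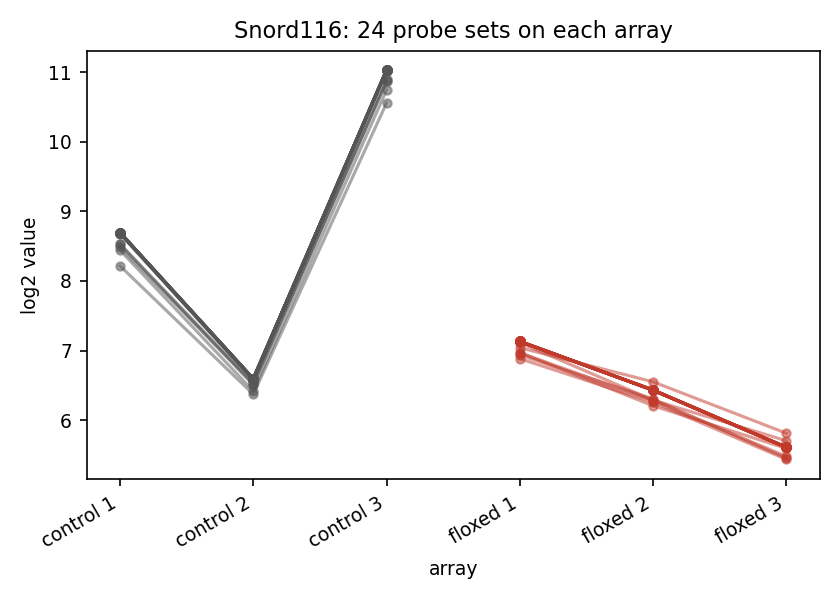
Log2 value (vertical axis) of each of the 24 Snord116 probe sets on the 6 arrays (horizontal axis), with lines joining the values of 1 probe set within a group. Control arrays spread from 6.37 to 11.03 and floxed arrays from 5.44 to 7.13, and the probe sets nearly coincide on each array.

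Genomic position was taken from the RefSeq table of the mouse assembly GRCm38.p6, in which 37 of the 38 members were placed, on 13 chromosomes. The C/D genes were 53 to 212 nt long with a median of 74.0 nt, and the H/ACA genes 56 to 198 nt with a median of 117.5 nt. A host gene enclosed 35 members, 31 hosts in all, and no gene enclosed Rnu3a or Snord118. The table used gives no strand, so a host is a gene whose span holds the snoRNA. Of the hosts, 11 encode ribosomal proteins and 7 are non-coding RNA genes. The median difference by kind of host was 0.38 over 12 members in ribosomal protein genes, 0.42 over 9 in non-coding genes and 0.47 over 14 in other coding genes.

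Host genes were nearly all higher as well, by smaller amounts than most of the snoRNAs they hold. Of 19 measured hosts 18 were higher in floxed arrays (49.8% of all genes were), with a median of 0.15. Above all controls lay 4 of them (5.05% of all genes did). All 19 hosts also remained with a filter on signal at the 75th percentile, where 58.5% of the genes kept were higher. In 20 of 21 pairs of a snoRNA and a measured host both were higher, and in 17 the difference of the snoRNA exceeded that of the host, by a median of 0.26 over the 21 pairs. The pairs share arrays and in 2 cases a host, so they are described and not tested. The snoRNA side was selected on this same difference and the hosts by position only. Nothing is therefore read from the snoRNAs exceeding their hosts. Without control replicate 3 the median over hosts was 0.09.

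Snhg1, the non-coding host of Snord22, had the largest difference of the measured hosts. Its transcript read 7.40, 7.39 and 7.01 in controls against 8.41, 8.36 and 7.62 in floxed arrays (0.86, SE 0.23), more than the 0.65 of Snord22. In the other pairs whose snoRNA did not exceed the host, Snora52 had 0.12 and Rplp2 0.19, Snord82 had 0.17 and Ncl 0.20, and Snora3 had 0.20 and Rpl27a 0.21. Rpsa, a ribosomal protein gene and host of Snora62, read 7.21, 7.40 and 7.61 in controls against 8.07, 7.99 and 7.69 in floxed arrays (0.51, SE 0.18). Its mean over the 6 arrays was 7.66, near the array medians, where the other measured ribosomal protein hosts had 10.6 to 13.51. The Rpsa reading is therefore less secure than theirs. Snhg1 and Rpsa were clear of their controls, as were Rpl4 (0.25), host of Snord16a, and Rab3gap2 (0.21), host of Snora36b. The other hosts of members with the largest differences had smaller values, Rbmx 0.10 where Snord61 had 0.61, Eif3a 0.09 where Snora19 had 0.47 and Rpl23 0.12 where Snora21 had 0.44. Kansl2 had 0.15 and encloses both Snora34 (0.48) and Snora2b (0.61). Tbrg4 was the 1 measured host that was lower, at −0.08, where Snora5c had 0.56. Gas5 and Snhg7, non-coding snoRNA hosts with no member of their own here and chosen after their values were seen, differed by 0.51 (SE 0.13) and 0.26 (SE 0.13), both without overlap.

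**Figure D5:**
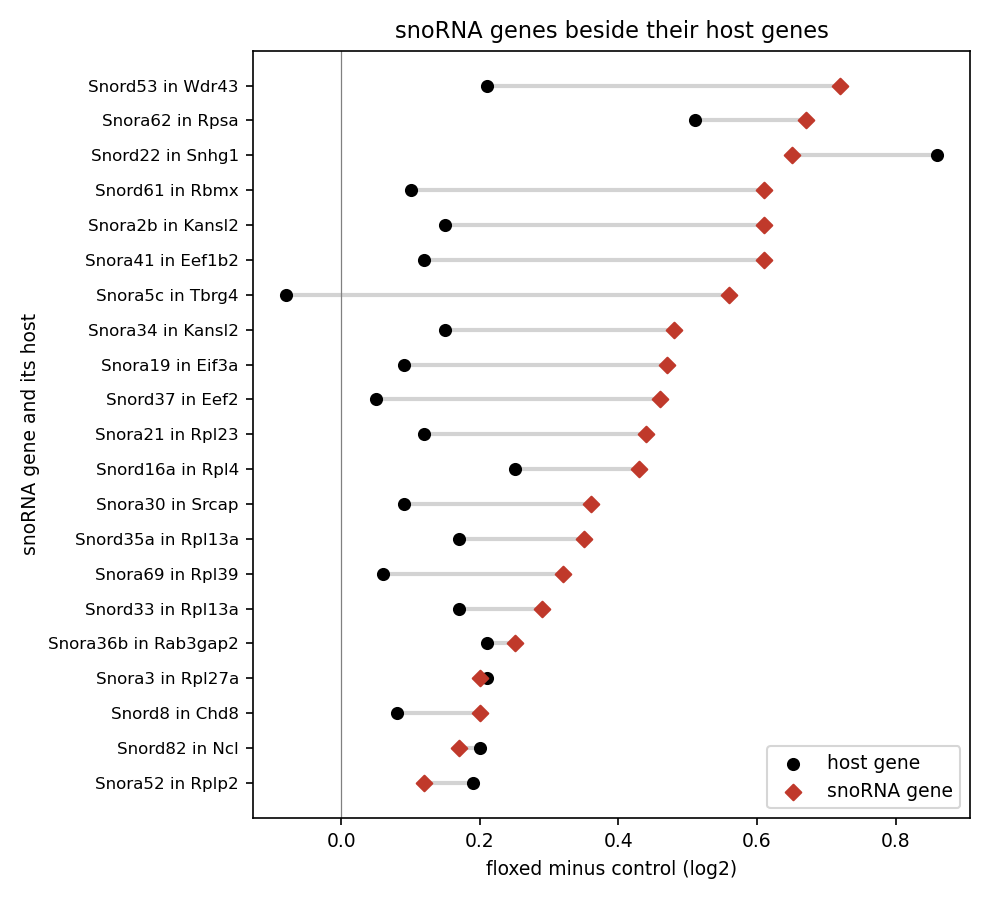
Difference, floxed minus control in log2 (horizontal axis), of each snoRNA gene (red diamond) and its host gene (black circle) for the 21 pairs with a measured host, ordered by the snoRNA. The diamond lies to the right of the circle in 17 pairs, and the widest gap is that of Snora5c and Tbrg4, at 0.56 and −0.08.

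Many snoRNA hosts belong to the genes whose transcripts start within a run of pyrimidines, the terminal oligopyrimidine motif known from ribosomal protein genes. The promoter table held 23 of the 31 hosts. The windows shown run from 20 bases before the start to 20 bases within the transcript, on the strand of the gene, and are credited to RefSeq on GRCm38.p6. Capitals mark the longest run of at least 8 bases that are all C or T. They were chosen because their snoRNAs are described above, with Rpsa as a host that has no such run.
Rpl13a, chr7:45128726-45128765 on the minus strand, host of Snord33 and Snord35a: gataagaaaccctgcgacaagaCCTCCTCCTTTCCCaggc
Rpl27a, chr7:109519175-109519214 on the plus strand, host of Snora3: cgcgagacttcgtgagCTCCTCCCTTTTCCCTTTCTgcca
Snhg1, chr19:8723467-8723506 on the plus strand, host of Snord22: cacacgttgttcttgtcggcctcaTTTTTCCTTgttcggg
Snhg12, chr4:132308658-132308697 on the plus strand, host of Snora44 and Snora61: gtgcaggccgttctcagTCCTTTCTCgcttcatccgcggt
Rpsa, chr9:120127746-120127785 on the plus strand, host of Snora62: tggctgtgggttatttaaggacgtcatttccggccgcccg

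A run of this kind lay in the window of 9 of 23 hosts (39.1%) and of 18.4% of the 27025 genes in the table, on the transcript strand, and in 5 of 7 ribosomal protein hosts. The run could lie anywhere in the window, so a match does not mean that the transcript starts within it. The runs of Rpl39 and Rpl4 ended before the annotated start, and those of Rpl13a and Snhg1 began after it. This definition was adopted after a narrower one, a C within 5 bases of the start followed by at least 4 pyrimidines, had been found in 4 of 23 hosts (17.4%) and in 17.2% of genes, so the excess depends on the definition. The 12 members in hosts with a run had a median difference of 0.31 and the 15 in hosts without one had 0.48. A match is a string of letters in this window, and a missing match says only that these letters are not there.

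The proteins that build snoRNA particles lay closer to 0, and none of their genes passed limma. Of the 8 core proteins 7 were higher with a median of 0.21, and 0 of 8 had floxed arrays above all controls (0 also had an unadjusted limma p of 0.05 or less). In C/D particles the methyltransferase fibrillarin (Fbl) had 0.13, Nop56 had 0.00, Nop58 had 0.29 and Snu13, annotated as Nhp2l1, had −0.01. In H/ACA particles the pseudouridine synthase dyskerin (Dkc1) had 0.07, and Nop10, Nhp2 and Gar1 had 0.35, 0.28 and 0.28. The H/ACA proteins shared the high reading of control replicate 1, as in Nop10 with 9.31, 8.73 and 8.70 in controls against 9.47, 9.20 and 9.12 in floxed arrays. Of 15 assembly and trafficking factors 10 were higher with a median of 0.06, 1 lay above all controls (5.05% of all genes did), and Znhit6 alone (0.38), named after its values were seen, had an unadjusted limma p under 0.05 (5.23% of all genes). The gene above all controls was Rpap3, a subunit of the chaperone complex that assembles the particles (0.39, SE 0.18). Over all 23 proteins the median was 0.10, and it was −0.02 without control replicate 3.

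Other small structural RNAs were measured for 10 genes, of which 9 were higher (49.8% of all genes were), with a median of 0.18, and 4 lay above all controls (5.05% of all genes did). The small Cajal body RNAs are relatives of snoRNAs that guide modification of spliceosomal RNAs, and both measured genes were among the 4. Scarna8 read 7.98, 7.70 and 7.80 in controls against 8.48, 8.73 and 8.30 in floxed arrays (0.68, SE 0.17), and Scarna17 had 0.20 (SE 0.11). The vault RNA gene Vaultrc5 read 10.52, 9.95 and 10.01 in controls against 10.76, 10.94 and 10.88 in floxed arrays (0.70, SE 0.16), and the spliceosomal Rnu5g had 0.28. Rny1, an RNA of the Ro particle, had the largest difference at 0.89 (SE 0.32), but control replicate 1 at 9.24 lay among the floxed arrays at 9.15, 9.29 and 9.11, while the other controls read 7.74 and 7.89. Several of the brightest small RNAs differed little. Rny3 had 0.08, the RNase MRP RNA Rmrp had 0.16 and the spliceosomal Rnu2 had 0.07. Terc, the telomerase RNA, which carries an H/ACA domain, had −0.15 (SE 0.11), and Rnu7, which acts in histone mRNA maturation, had 0.11. MicroRNA genes were not analysed here.

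Genes that stem cells are not known to use, and markers of other cell types, also differed between the arrays. The 982 olfactory receptor genes had a median difference of −0.22, with 903 lower in floxed arrays, and their median reading stood highest on control replicate 3, at 0.38 above the gene means, against −0.14 to −0.01 on the other 5 arrays. The 6 snoRNA genes within the range of these dim signals had a median difference of 0.54, and the 32 above that range had 0.43. Of those 32, 14 had floxed arrays above all controls (5.05% of all genes did). Granulocyte and macrophage markers, 9 of 10 measured, were lower for 9 of 9, with array means of 9.31 to 10.36 in controls against 9.36 to 10.07 in floxed arrays. Erythroid markers were lower for 3 of 3, at 9.73 to 9.86 and 9.41 to 9.79. B cell markers were lower for 2 of 3, at 7.88 to 9.51 and 8.48 to 9.07. T and NK cell markers were lower for 2 of 3, at 8.28 to 8.92 and 8.14 to 8.27, among them Cd3e at −0.92, below all controls. The lowest log2 value of any probe set was 2.44, so a marker with a value is not thereby shown to be expressed. The part of these cells in the snoRNA differences was not tested. A larger share of cells with much snoRNA and more snoRNA per cell cannot be told apart in these bulk samples. A technical source of the differences was not tested either, and the labels give no batch.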

How the data were processed

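Expression was measured on 6 arrays. Per the labels' protocols, sorted cells were lysed and their RNA was extracted with trizol, and 100 ng went into the labelled cRNA. The deposited values are log2 signals of 241576 probe sets (2.44 to 14.53), and the base of the logarithm was inferred from that range. The submitters' processing notes name MAS5 without a version, and further steps are not given in the sources used here. No scan date or other batch was given, and scanner files with their detection calls were not used here.

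In the platform annotation 212097 probe sets had a single symbol and were used, while 4475 had several and 25004 lacked one. The value of a gene was the median over all its probe sets, with no filter on level, for 20416 genes. Genes were fitted with limma 3.58.1 in R 4.3.3 (two-sided moderated test with a mean-variance trend in lmFit and eBayes, Benjamini-Hochberg over all genes, threshold 0.05), with the data.table package (version 1.17.8) for reading, and the steps were tested on simulated data. snoRNA symbols were current in RefSeq for 37 of 38 members. A further 6 probe sets were annotated to a snoRNA and a second gene (all 6 higher, 0.13 to 0.61, median 0.48), and 3 genes are snoRNAs only under an updated symbol. Neither kind was taken as a member. Hosts were to be matched on strand, but the table has no strand, so span alone was used.

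The members, gene lists and tests were chosen with earlier results of these data known. Named members were, in each class, the 5 with the highest mean, up to 6 per direction with the largest difference among those without overlap, and those with a textbook role. Core proteins, the hosts of the members with the largest differences and the 5 other small RNAs of highest mean completed the rule, and all other genes were singled out after their values were seen. Same-numbered arrays correlated at 0.18, −0.01 and −0.16 in their deviations from the group means, so replicate numbers were not taken as pairs. Alternatives covered scaling, filters, the gene summary, array weights, the variance model, the replicate block and leaving out each array. Chosen after seeing the data were leaving out Snord116, leaving out dim members and taking in the shared probe sets.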

Additional observations from a re-analysis of the deposited data

How the results depend on the processing

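Over the alternatives run, the median difference ran from 0.35 to 0.54 for C/D genes and from 0.32 to 0.50 for H/ACA genes, and the named members kept their sign in all 298 alternative values. Of 38 members, 36 stayed above 0 in the 12 settings that hold all of them, and the exceptions were Snord116 and Snord8. Single-gene calls numbered 2 with all arrays and 0 with the filter at the median (14605 genes) or the 75th percentile (9435 genes), 0 to 9 when 1 array was left out (9 without control replicate 1, 0 without control replicate 3, floxed replicate 1 or floxed replicate 2), and 2 with the replicate block, none of them snoRNAs. The block left both class medians at 0.43. With the 75th percentile filter 18 of 18 remaining members were higher (58.5% of all genes) and 8 free of overlap (7.34%). Of members with 2 or more probe sets 7 of 8 were higher (49.8% of all genes) and 3 had floxed arrays above all controls (5.05% of all genes). In 4 of the 7 members with 2 probe sets both held identical values, so each of those has only 1 measurement. Leaving out 1 array gave 17 to 30 members free of overlap. Over the same settings the share of all genes with floxed arrays above all controls ran from 7.41% (without control replicate 3, 18 members) to 17.4% (without control replicate 1, 30 members). The count with floxed arrays above all controls was 15 with quantile normalization (4.7% of all genes) and 15 with equal array medians (4.32%).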
